A study of Mus musculus with 4 samples.

Results

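Nfe2l2, the gene of the transcription factor NRF2, its inhibitor gene Keap1 and 8 antioxidant enzyme genes were followed in RNA-seq of mouse embryonic stem cells (mESCs). These 10 genes were chosen by symbol (Nfe2l2, Keap1, Nqo1, Hmox1, Gclc, Gclm, Txnrd1, Srxn1, Gsr and Prdx1) from the 37620 genes of the count table, and all 10 passed the filter on low counts. The choice was made with earlier results of these data known. The study compared WT_CTCF with MUT_CTCF mESCs, each with 2 libraries that the methods call biological replicates. Both lines come from CTCF-EGFP-AID mESCs, in which the tagged endogenous CTCF is degraded with auxin and replaced by CTCF from a vector. WT_CTCF mESCs carry wild-type CTCF, and MUT_CTCF mESCs carry CTCF mutated at T668, the residue that bears O-GlcNAc. Each line was a picked clone, selected for CTCF at a level like the endogenous one, so the clone and the mutation cannot be told apart. All cells grew on gelatin in serum medium with LIF and 0.1 mM β-mercaptoethanol, a reducing agent.

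NRF2 switches on antioxidant and detoxifying genes. KEAP1 binds NRF2 and hands it to the CUL3-RBX1 ubiquitin ligase for degradation, and oxidants or electrophiles that react with KEAP1 let NRF2 accumulate. NRF2 then pairs with a small MAF protein on antioxidant response elements near genes for glutathione synthesis, thioredoxin recycling and quinone reduction. Much of this control acts on NRF2 protein, which RNA counts do not measure.

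Of the 10 genes, Nqo1 and Prdx1 fell in MUT_CTCF mESCs and 0 rose at an adjusted p under 0.05 (edgeR), where 1.61% of the 16264 tested genes fell and 1.56% rose. Nqo1 was 16.7% lower and Prdx1 5.57% lower. Neither call held in all the alternative fits tried, and Prdx1 was close to the threshold. All 10 genes had at least 1000 mean counts after scaling, a level at which 3.45% of genes fell and 2.46% rose. Nfe2l2 was 8.16% higher without passing, and Keap1 had a log2 fold change of 0.017. Apart from Srxn1, each of the 8 enzyme genes had a lower fitted level in MUT_CTCF than in WT_CTCF mESCs. For each of these 7, both MUT_CTCF libraries lay below both WT_CTCF libraries. The same was so for 22.3% of tested genes and for 31.7% of those with at least 1000 mean counts.

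Total counts ran from 40524694 to 40977464 per library. Counts were scaled by TMM to the mean library (normalized counts), and edgeR's quasi-likelihood test was run on 16264 genes, over all of which p-values were adjusted. Ctcf itself had 18302 and 18669 normalized counts in WT_CTCF and 18791 and 19325 in MUT_CTCF mESCs, which does not separate endogenous from exogenous RNA. The stem cell label was checked on Pou5f1, Nanog, Sox2 and Zfp42, which lay between 20760 and 60106 normalized counts in every library. Sox2 was 6.82% higher in MUT_CTCF mESCs (adjusted p = 0.0358, edgeR's quasi-likelihood test), and Pou5f1, Nanog and Zfp42 did not pass. Utf1, a further stem cell marker, was 13.8% lower (adjusted p = 0.00499, same test). A sum over 8 fibroblast markers was 25.2 to 25.3 CPM (counts scaled to library size) in WT_CTCF and 28.5 to 31.5 in MUT_CTCF mESCs, with Lum at 0 throughout. A sum over 6 primitive endoderm markers was 11.3 to 13.0 and 13.7 to 15.1 CPM, against 5330 to 5390 CPM for 8 stem cell markers. Both small sums were higher in MUT_CTCF mESCs, but the markers did not all move alike. Of 5 fibroblast markers tested, 3 had a fitted log2 fold change above 0 and 2 below. Fbln2 was the 1 that passed, 64.6% higher in MUT_CTCF mESCs (adjusted p = 0.0261, edgeR's quasi-likelihood test). Col3a1 went from 26 and 23 counts in WT_CTCF to 12 and 5 in MUT_CTCF mESCs, without passing. Of 4 endoderm markers tested, 3 were above 0 and 1, Dab2, below. None of the 4 passed, and the largest of these differences was that of Gata6, 92.5% higher (adjusted p = 0.0733, same test). The part of these sums in the results was not tested. In bulk RNA, fewer cells of a type and less RNA per cell cannot be told apart. With 2 libraries per line, the smallest two-sided p of an exact permutation test is 0.333, so p-values here rest on the spread edgeR shares between genes.

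To compare levels between genes, counts were divided by exon length and expressed as TPM, which also scales for library size. Exon length here merges all annotated exons of a gene. Prdx1, which encodes an abundant peroxiredoxin that reduces hydrogen peroxide, had the highest level, with 848 and 852 TPM in WT_CTCF and 838 and 798 TPM in MUT_CTCF mESCs. Txnrd1 followed with a mean of 270 TPM over the 4 libraries, then Gsr with 241, Hmox1 with 163 and Nqo1 with 95.2 TPM. Gclm, Nfe2l2 and Gclc had means of 55.2, 53.0 and 52.6 TPM. Their ranges over the libraries overlapped, so their order is not resolved. Srxn1 had a mean of 44.0 TPM and Keap1 the lowest, 29.4 TPM. The ranges of all other neighbours in this order did not overlap, and the highest mean was 28.4 times the lowest. These ranges cover the spread between libraries only, not error from the exon length used or from reads that fit more than 1 place. Close means, such as those of Txnrd1 and Gsr, are thus not resolved as levels. RNA of all 10 genes was thus present in both lines, with Prdx1 ranked 156 and Keap1 ranked 5137 among all genes by mean TPM.

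**Figure D1:**
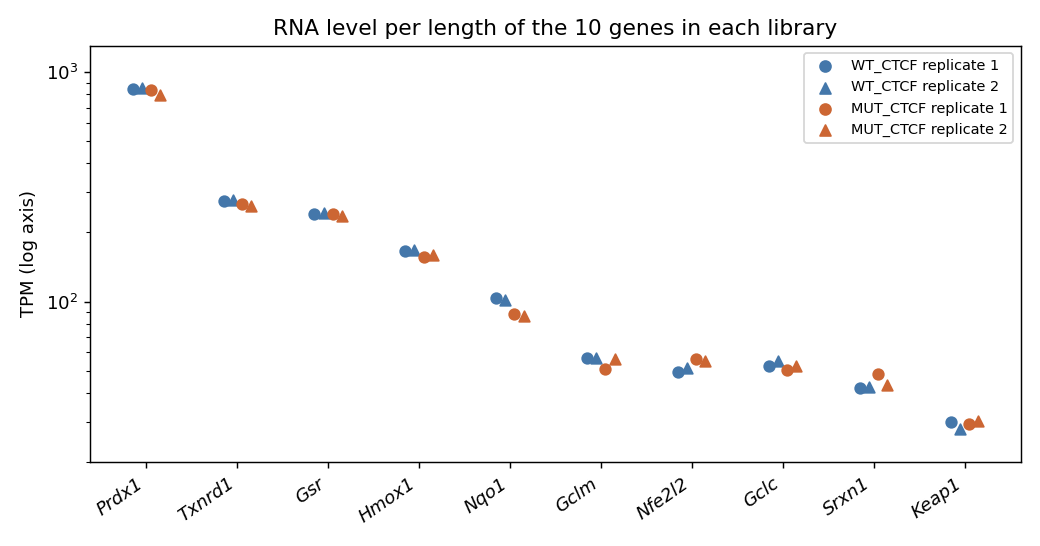
RNA level per length of the 10 genes (TPM, log axis) in each of the 4 libraries, WT_CTCF in blue and MUT_CTCF in orange, with circles for replicate 1 and triangles for replicate 2. Genes are ordered by their mean, from Prdx1 (834 TPM) to Keap1 (29.4 TPM), and the gaps between most genes are larger than those between the lines.

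The promoters of 4 enzyme genes are shown because these known NRF2 targets differ in how their RNA moved: Nqo1 and Prdx1 fell, while Srxn1 had higher and Gclm lower counts without passing. Each window runs from 250 bases before to 50 bases after the start of the gene, 5′ to 3′ on the gene's strand, in RefSeq on GRCm38.p6. The places are chr8:107403156-107403455 on the minus strand for Nqo1, and on the plus strand chr4:116685349-116685648 for Prdx1, chr2:152105274-152105573 for Srxn1 and chr3:122245307-122245606 for Gclm. Capitals mark the core of the antioxidant response element, TGACNNNGC or TGAGNNNGC, read on either strand.
Nqo1: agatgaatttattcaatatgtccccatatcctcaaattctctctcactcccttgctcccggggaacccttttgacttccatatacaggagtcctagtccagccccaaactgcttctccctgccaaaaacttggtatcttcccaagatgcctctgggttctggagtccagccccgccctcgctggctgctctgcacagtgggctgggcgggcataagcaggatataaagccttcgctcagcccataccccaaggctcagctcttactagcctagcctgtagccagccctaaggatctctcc
Prdx1: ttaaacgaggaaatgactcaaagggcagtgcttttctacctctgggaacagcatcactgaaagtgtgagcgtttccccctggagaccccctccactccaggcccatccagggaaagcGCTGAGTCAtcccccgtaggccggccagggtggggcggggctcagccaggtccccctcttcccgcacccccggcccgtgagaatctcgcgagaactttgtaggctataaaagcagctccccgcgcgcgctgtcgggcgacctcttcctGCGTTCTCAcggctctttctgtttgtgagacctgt
Srxn1: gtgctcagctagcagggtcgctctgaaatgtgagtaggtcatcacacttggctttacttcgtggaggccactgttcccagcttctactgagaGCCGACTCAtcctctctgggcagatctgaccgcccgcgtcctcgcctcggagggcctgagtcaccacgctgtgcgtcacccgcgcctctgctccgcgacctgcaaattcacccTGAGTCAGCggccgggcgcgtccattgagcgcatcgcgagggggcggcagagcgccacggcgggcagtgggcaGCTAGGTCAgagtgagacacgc
Gclm: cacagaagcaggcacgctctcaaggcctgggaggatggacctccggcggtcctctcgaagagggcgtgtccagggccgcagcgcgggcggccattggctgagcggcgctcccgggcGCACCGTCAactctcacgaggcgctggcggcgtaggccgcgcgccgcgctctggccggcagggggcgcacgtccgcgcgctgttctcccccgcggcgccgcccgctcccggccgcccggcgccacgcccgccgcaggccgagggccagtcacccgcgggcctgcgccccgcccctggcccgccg
The Srxn1 window held 3 matches, the Prdx1 window 2, the Gclm window 1 and the Nqo1 window 0. The match at base 118 of the Prdx1 window and the one at base 206 of the Srxn1 window also hold an AP-1 site (TGACTCA or TGAGTCA), so the motifs of both factor families overlap there. Of the 10 genes, 7 had an entry, and 5 of these had a match in at least 1 window, Nfe2l2 and Txnrd1 being the others. By gene this was 71.4%, against 30.8% of all genes in the RefSeq table, and by window 55.6%, against 27.8% of all windows of this length. A match describes the letters alone. Elements outside these windows were not searched.

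The regulators were taken first. Nfe2l2 (mm9 chr2:75513570-75542698, minus strand) had 2855 and 2941 normalized counts in the WT_CTCF and 3166 and 3102 in the MUT_CTCF libraries. The MUT_CTCF libraries were the higher pair, with no overlap. Nfe2l2 was thus 0.11 higher on the log2 scale (SE, standard error, 0.052 and 95% interval 0.0082 to 0.22), which did not pass over all genes (adjusted p = 0.287, edgeR's quasi-likelihood test). Keap1 (chr9:21034174-21043776, minus strand) had 2037 and 1874 normalized counts in WT_CTCF and 1944 and 2015 in MUT_CTCF mESCs. The lines overlapped. The fitted log2 difference of 0.017 (edgeR, SE 0.064, adjusted p = 0.943) has a 95% interval of -0.11 to 0.15, which admits a change of either sign. With WT_CTCF replicate 2 left out it was -0.043, and with MUT_CTCF replicate 2 left out -0.010. Keap1 shares 510 of its 4470 exon bases with Gm16754 on the opposite strand, and whether counting used strand is not stated.

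Nqo1, which encodes a quinone reductase widely used as a readout of NRF2, had the largest difference of the 10 genes. Nqo1 (chr8:109912125-109927106, minus strand) had 2464 and 2377 normalized counts in WT_CTCF and 2034 and 1998 in MUT_CTCF mESCs. The gap between the lines was larger than that between replicates, with 2420 ± 61.8 against 2016 ± 26.0 (SD, n = 2). The log2 fold change was -0.26 (edgeR's quasi-likelihood test, SE 0.060, adjusted p = 0.00503). Within each library, the ratio of Nqo1 to Nfe2l2 counts was 0.863 and 0.808 in WT_CTCF and 0.642 and 0.644 in MUT_CTCF mESCs. This ratio does not depend on how libraries are scaled. The adjusted p of Nqo1 was 0.167 without a filter on low counts, 0.114 with WT_CTCF replicate 1 left out, and 0.451 and 0.477 with MUT_CTCF replicates 1 and 2 left out in turn. Nqo1 still passed with WT_CTCF replicate 2 left out, and over all 12 alternatives its adjusted p ran from 0.000985 to 0.477 with log2 fold changes of -0.29 to -0.24. Hmox1, which encodes the heme-degrading oxygenase and is also repressed by BACH1, had 5459 and 5468 normalized counts in WT_CTCF and 5019 and 5143 in MUT_CTCF mESCs. The lines did not overlap. The log2 fold change of Hmox1 (chr8:77617490-77624495, plus strand) was -0.10 (edgeR, SE 0.042, adjusted p = 0.188) and did not pass.

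The glutathione enzymes were next. Gclc and Gclm encode the catalytic and modifier subunits of glutamate-cysteine ligase, which makes the first and rate-limiting step of glutathione synthesis, and Gsr encodes glutathione reductase. Gclc (chr9:77602342-77642292, plus strand) had 2729 and 2846 normalized counts in WT_CTCF and 2551 and 2666 in MUT_CTCF mESCs. Gclm (chr3:121948475-121972902, plus strand) had 4450 and 4406 in WT_CTCF and 3885 and 4285 in MUT_CTCF mESCs. The MUT_CTCF libraries were lower for both subunits, and for Gclm replicate 1 lay well below replicate 2. The log2 fold changes were -0.096 for Gclc (edgeR, SE 0.055, adjusted p = 0.428) and -0.12 for Gclm (edgeR, SE 0.047, adjusted p = 0.198). The log2 fold change of Gclm was -0.19 with MUT_CTCF replicate 2 left out and -0.047 with MUT_CTCF replicate 1 left out, so its size depended on which MUT_CTCF library was kept. The ratio of Gclm to Gclc counts was 1.63 and 1.55 in WT_CTCF and 1.52 and 1.61 in MUT_CTCF mESCs, and the lines overlapped. Gsr (chr8:34762995-34808635, plus strand) had 10110 and 10117 normalized counts in WT_CTCF and 9837 and 9683 in MUT_CTCF mESCs, a log2 difference of -0.051 (edgeR, SE 0.034, adjusted p = 0.509). None of the 3 genes passed. Gclm shares 296 exon bases with Gm17494 on the opposite strand.

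The thioredoxin and peroxiredoxin enzymes included the second gene that fell. Prdx1 (chr4:116358149-116373427, plus strand) had 39226 and 39064 normalized counts in WT_CTCF and 37831 and 36101 in MUT_CTCF mESCs. The MUT_CTCF libraries were lower and further apart, at 36966 ± 1220 against 39145 ± 114 (SD, n = 2). The log2 fold change was -0.083 (edgeR's quasi-likelihood test, SE 0.025, adjusted p = 0.0458), close to the threshold. With MUT_CTCF replicate 2 left out it was -0.051, and with MUT_CTCF replicate 1 left out -0.12. Prdx1 did not pass by edgeR's exact test (adjusted p = 0.167), with scaling by library size only (0.120), without a filter (0.369) or with any 1 library left out, and its adjusted p over the 12 alternatives ran from 0.0164 to 0.529. The whole coding sequence of Prdx1 matched 1 other place in mm9 at 97% identity or more. Reads that fit both places are not unique and were not counted, so its level is uncertain.

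Txnrd1, which encodes cytosolic thioredoxin reductase, had 16812 and 16706 normalized counts in WT_CTCF and 15847 and 15647 in MUT_CTCF mESCs. The lines did not overlap. The log2 fold change of Txnrd1 (chr10:82296696-82360469, plus strand) was -0.090 (edgeR, SE 0.029, adjusted p = 0.0775), which missed the threshold. Srxn1, which encodes sulfiredoxin and repairs over-oxidized peroxiredoxins, was the exception among the enzymes. Srxn1 (chr2:151931252-151937112, plus strand) had 1795 and 1809 normalized counts in WT_CTCF and 2012 and 1821 in MUT_CTCF mESCs, a log2 difference of 0.089 (edgeR, SE 0.066, adjusted p = 0.583). MUT_CTCF replicate 1 stood apart, and without it the log2 fold change was 0.015. Srxn1 and Prdx1, which act in the same peroxide cycle, thus had fitted changes of opposite sign, and the difference between them was not tested.

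**Figure D2:**
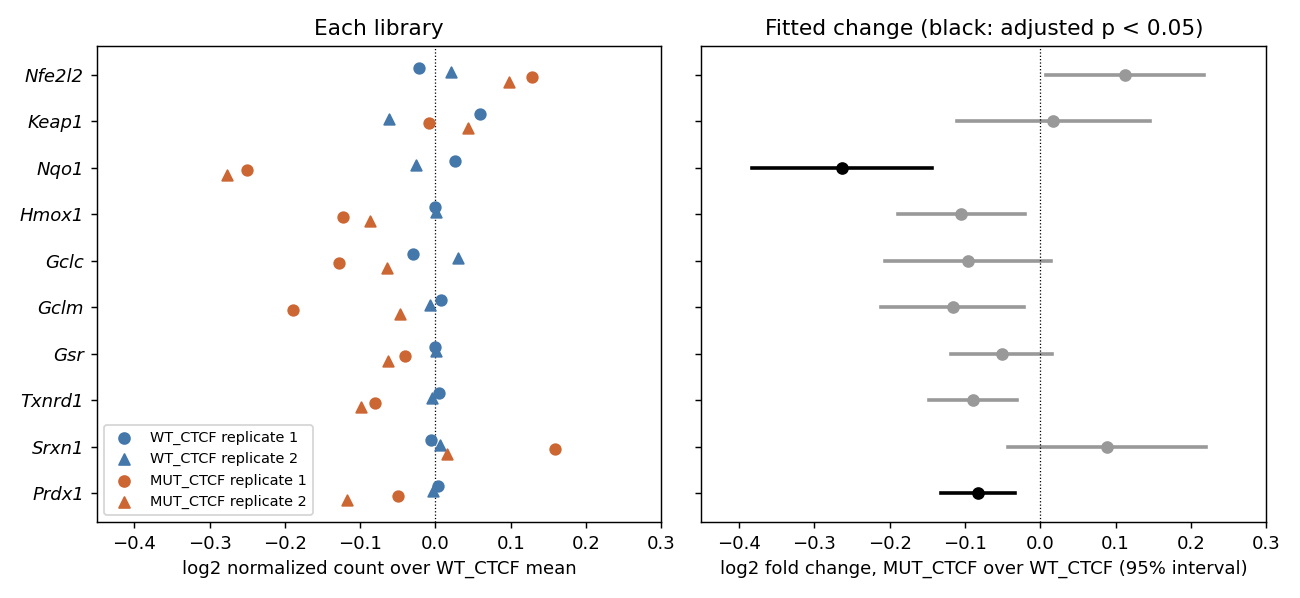
Left, log2 of each library's normalized count over the WT_CTCF mean for the 10 genes (WT_CTCF blue, MUT_CTCF orange, circles replicate 1, triangles replicate 2). Right, the fitted log2 fold change of MUT_CTCF over WT_CTCF with its 95% interval, black where the adjusted p was under 0.05. Nqo1 (-0.26) and Prdx1 (-0.083) are black, and Nfe2l2, Keap1 and Srxn1 lie to the right of 0.

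Read against the whole table, 2 of 10 genes were called lower where 1.61% of the 16264 tested genes were, and 0 of 10 were called higher where 1.56% were. The 10 genes were chosen with earlier results of these data known, so setting such shares side by side does not test the group. At an unadjusted p under 0.05, 5 of the 10 were lower, where 7.65% of tested genes were, and 1 was higher, where 7.61% were. DESeq2 called 0 higher and the same 2 genes lower. At the study's criterion, which asks for a more than 2-fold change and an unadjusted p under 0.05, 0 of 10 were called in either direction, where 0.947% of tested genes were called higher and 0.357% lower. Both MUT_CTCF libraries lay below both WT_CTCF libraries for 7 of the 10 genes, where 22.3% of tested genes did so, and above them for 2, where 22.3% did. All 10 genes had at least 1000 mean normalized counts, and well-counted genes are called more often. Of the 6461 tested genes at that level, 3.45% were called lower, 2.46% were called higher, 31.7% had both MUT_CTCF libraries lower and 20.1% had both higher. Of the same 6461 genes, 908 were lower and 555 higher at an unadjusted p under 0.05. The fitted log2 fold change was below 0 for 7 of the 10 genes, for 49.2% of tested genes and for 57.5% of the 6461, and above 0 for 3 of the 10, for 50.8% and for 42.5%. Among the 305 genes with at least 20000 mean normalized counts, to which Prdx1 belongs, 14.1% were called lower. The median log2 fold change was -0.086 over the 10 genes, -0.016 over the 6461 genes and 0.0034 over all tested genes. By scaling, the calls over all genes were 253 higher and 262 lower with TMM, and 260 higher and 152 lower with library size only.

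Exon length moved with these changes. Among genes with at least 1000 mean normalized counts, the median log2 fold change was -0.061 for the 579 genes with up to 1500 exon bases and 0.0036 for the 2165 genes over 5000 bases. In the class of 1500 to 3000 bases, which holds Nqo1, Hmox1, Gsr and Srxn1, the median was -0.027. In that of 3000 to 5000 bases, which holds Nfe2l2, Keap1, Gclc, Txnrd1 and Prdx1, it was -0.016. The fit was therefore repeated with each library's trend on exon length taken out, an alternative chosen after the data were seen. Nqo1 then had a log2 fold change of -0.24 (adjusted p = 0.0110, edgeR) and Prdx1 -0.076 (adjusted p = 0.0441, edgeR), so both calls held in this fit. The length used merges all annotated exons, 3043 bases for Prdx1, and can exceed that of the transcript mainly made. An offset on transcript length was not tried. Txnrd1 passed in this fit at -0.094 (adjusted p = 0.0421, edgeR, range over its alternatives 0.0421 to 0.489).

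**Figure D3:**
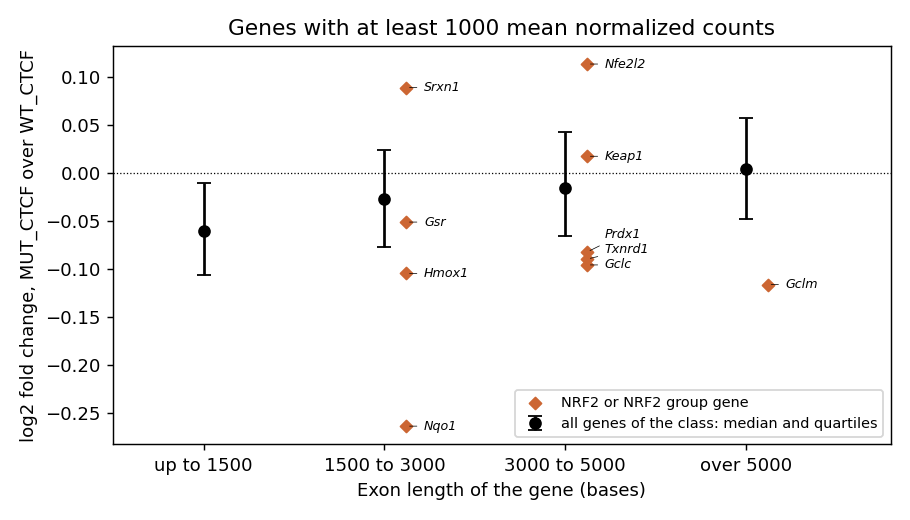
Log2 fold change of MUT_CTCF over WT_CTCF by exon length, for genes with at least 1000 mean normalized counts. Black points and bars are the median and quartiles of all genes in a class, and orange diamonds are the 10 genes. The class medians go from -0.061 at up to 1500 bases to 0.0036 over 5000 bases, and Nqo1 lies at -0.26.

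Of 88 further genes of the pathway in 4 lists, 85 could be tested, and 2 rose and 11 fell at an adjusted p under 0.05, or 2.35% and 12.9%, against 1.56% and 1.61% of all tested genes. The lists were chosen with earlier results of these data known, so these shares do not test the pathway. The 11 include Mgst2, which passed the filter on low counts only through WT_CTCF, where it is higher, so its call supports nothing here. The median log2 fold change of the 85 genes was -0.039. Among the 52 of them with at least 1000 mean normalized counts, 0 rose (5 at an unadjusted p under 0.05) and 9 fell (17.3%), against 2.46% and 3.45% of all genes at that level. Of these 9, 6 (Gpx1, Gsta3, Txn1, Sod1, Ftl1 and Fth1) have up to 1500 exon bases. Over all genes of that length at that level, 8.98% were called lower. This is a share of genes and not of calls, so it cannot be set against 6 of 9. By calls, 223 genes of the whole table at that level were called lower, and 52 of these 223 have up to 1500 exon bases. How the lists and the whole table differ in exon length was not tested. With MUT_CTCF replicate 1 left out, with MUT_CTCF replicate 2 left out, or with no filter on low counts, none of the 13 passed in edgeR's test. At an unadjusted p under 0.05, these 3 fits had 4, 2 and 8 genes higher and 16, 19 and 22 lower.

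Among 10 partners and regulators of NRF2, 1 rose and 1 fell, with a median log2 fold change of 0.012. Maff, which encodes a small MAF protein, had 168.3 and 208.5 normalized counts in WT_CTCF and 267.7 and 295.4 in MUT_CTCF mESCs. It rose by 0.58 on the log2 scale (edgeR, SE 0.17, adjusted p = 0.0405), and DESeq2 gave it no adjusted p. Sqstm1, which encodes the autophagy receptor p62 that binds KEAP1, went from 20286 ± 119 to 18791 ± 628 (SD, n = 2), a log2 difference of -0.11 (adjusted p = 0.0170, edgeR). Maff and Sqstm1 had no overlap between the lines. Sqstm1 shares 580 of its 3356 exon bases with 3010026O09Rik on the opposite strand, and whether counting used strand is not stated. Mafg, another small MAF gene, was at -0.12 on the log2 scale and missed the threshold (adjusted p = 0.0700, edgeR). The other 7, among them Cul3, Rbx1 and the repressor gene Bach1, did not pass.

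In the glutathione list, 33 of 34 genes were tested, 1 rose and 5 fell, with a median of 0.0084. Chac1, which encodes an enzyme that breaks down glutathione and is known as a stress-induced target of ATF4, had 286.5 and 213.5 normalized counts in WT_CTCF and 460.0 and 540.6 in MUT_CTCF mESCs. Its log2 fold change of 1.00 (edgeR, SE 0.14, adjusted p = 1.5e-06) was the largest called rise in the 4 lists. The fallers were 2 glutathione peroxidases and 3 glutathione transferases. Gpx2 went from 1084 ± 43.3 to 820.6 ± 53.6 (SD, n = 2), a log2 difference of -0.40 (adjusted p = 0.00329, edgeR), and Gpx1 had -0.13 (adjusted p = 0.0033, edgeR). Gsto1 had -0.29 (adjusted p = 0.00121, edgeR) and Gsta3 -0.25 (adjusted p = 0.0443, edgeR). Mgst2, a microsomal transferase, had 25 and 17 counts in WT_CTCF and 1 and 1 in MUT_CTCF mESCs. The ratio of its summed counts was 0.0478 (exact 95% interval 0.00561 to 0.184, counting error only). Mgst2 passed the filter on low counts only through the WT_CTCF libraries, where it is higher, so its call is counted among the 5 but its test supports nothing further. Gsta1 had 0 counts in all 4 libraries, where up to 3 counts, or 0.0740 CPM, of uniquely mapped reads could have been missed by sampling. Copies at 7 other places hold 79.6% of the Gsta1 coding sequence, so reads shared with them were not counted and the 0 is no limit on its RNA.

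In the list of thioredoxin, peroxiredoxin, superoxide dismutase and catalase genes, 17 of 18 were tested, 0 rose (1 at an unadjusted p under 0.05) and 2 fell, with a median of -0.040. Sod1, the cytosolic superoxide dismutase gene, had 20384 ± 262 normalized counts in WT_CTCF and 18699 ± 402 in MUT_CTCF mESCs (SD, n = 2), or -0.12 on the log2 scale (adjusted p = 0.00499, edgeR). Txn1, the cytosolic thioredoxin gene, had a log2 fold change of -0.12 (adjusted p = 0.0412, edgeR), and Prdx6 had -0.082 without passing (adjusted p = 0.0531, edgeR).

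Among 25 tested of 26 other targets for NADPH supply, iron storage and detoxification, 0 rose (3 at an unadjusted p under 0.05) and 3 fell, with a median of -0.052. Both ferritin chains fell. Fth1, the heavy chain, had a log2 fold change of -0.11 (adjusted p = 0.00593, edgeR) and Ftl1, the light chain, -0.12 (adjusted p = 0.00813, edgeR). Idh1, which makes NADPH in the cytosol, had 15905 ± 32.6 normalized counts in WT_CTCF and 14601 ± 420 in MUT_CTCF mESCs (SD, n = 2), or -0.12 on the log2 scale (adjusted p = 0.0100, edgeR). Ftl1 was -0.079 without MUT_CTCF replicate 2. The whole coding sequences of Gpx2, Sod1 and Ftl1 matched other places in mm9 at 97% identity or more, so their counts are uncertain.

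**Figure D4:**
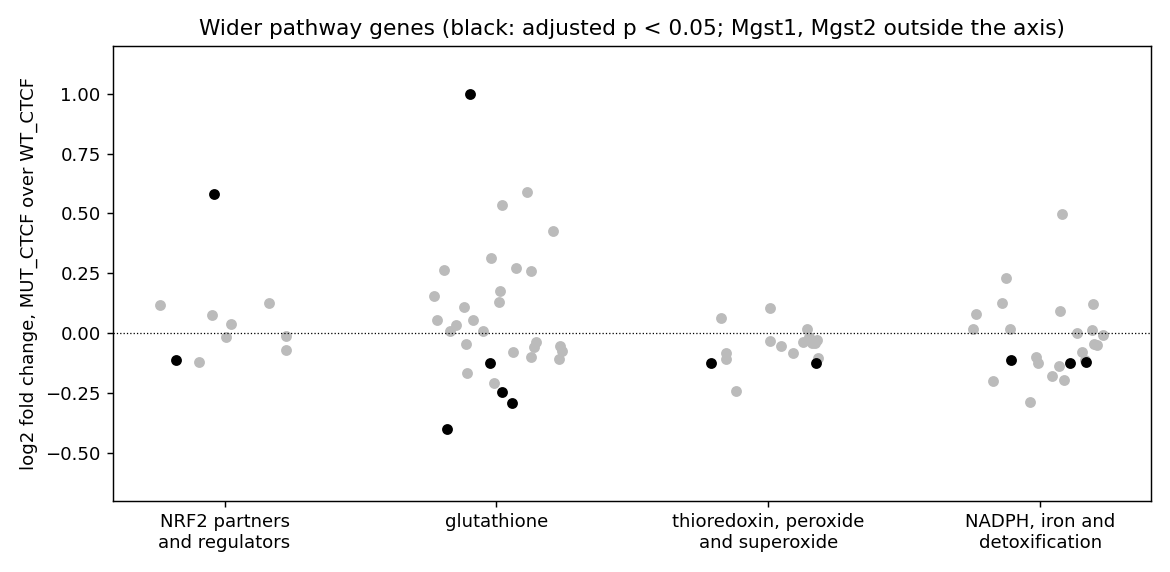
Log2 fold change of MUT_CTCF over WT_CTCF for the tested genes of the 4 wider lists, 1 point per gene, black where the adjusted p was under 0.05. Chac1 (1.00) and Maff (0.58) are the black points above 0, and Mgst1 and Mgst2 lie outside the axis.

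With the length trend taken out, 3 of the 85 genes were called higher and 8 lower, and 5 of these 8 were among the 11. The same fit called 273 genes higher and 269 lower of all 16264. Sqstm1, Gpx2, Gsto1 and Idh1 kept their calls, and Gpx2 is itself short, with 1067 exon bases. The fifth of these 5 was Mgst2, which passed the filter only through WT_CTCF, so its call supports nothing here. The 6 genes that no longer passed in edgeR's test all had smaller differences in this fit. Sod1 was at -0.060 on the log2 scale (adjusted p = 0.274), Fth1 at -0.061 (0.208), Gpx1 at -0.072 (0.135) and Txn1 at -0.079 (0.263), each over 1.5 times smaller than without the offset. Ftl1 was at -0.088 (0.0606) and Gsta3 at -0.21 (0.0920), which moved less. What gave rise to the length trend was not tested. Over the 12 alternatives, the adjusted p ran from 0.000396 to 0.451 for Gpx1 and from 0.0188 to 0.489 for Txn1.

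By the root mean square difference of centred log2 CPM over the 4 libraries, the genes with a pattern nearest to Nfe2l2 were Pi4ka (0.00374), Ftsjd1 (0.0058) and Oip5 (0.00643). None of these 3 passed the test (adjusted p from 0.249 to 0.671, edgeR), and likeness over 4 libraries describes the profile only.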

How the data were processed

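RNA-seq reads of 4 libraries were trimmed by the authors with Trim Galore 0.4.4, aligned to mm9 with STAR, and counted per Ensembl gene with HTSeq 0.9.1 from uniquely mapped reads. The deposited counts are raw and were used as they stand. The strand setting is not given in the sources used here. A deposited table of the authors' own edgeR comparison holds fold changes and p-values and was not used.

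Genes were named and placed with GENCODE M1 (NCBIM37, the same build as mm9), which named 37205 of 37620 identifiers. Counts were filtered with filterByExpr (minimum count 10), scaled by TMM, and tested with glmQLFit and glmQLFTest in edgeR 4.0.16 (R 4.3.3) on the line alone, with Benjamini-Hochberg adjustment over 16264 genes. Calls were made at an adjusted p under 0.05 and, separately, at the study's criterion. The fit was tested on simulated data. The fit was repeated with DESeq2 1.42.0, the exact test of edgeR, other scalings, other filters, a replicate block, each library left out, and an exon length offset (trend of log2 CPM on log2 exon length) added after the data were seen. Copies of coding sequences were searched with BLAST 2.17.0 (at least 100 bases).

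The 10 genes and the lists were chosen with earlier results of these data known. The genes named were the 10, the 3 with the smallest p and every call in each wider list, 4 stem cell markers, and the 3 genes with at least 100 mean normalized counts nearest to Nfe2l2. Intervals of counts cover counting error only.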

Additional observations from a re-analysis of the deposited data

How the results depend on the processing

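The count of NRF2 group genes called higher was 0 under every alternative. The count called lower was 2 as reported, 1 by edgeR's exact test, 1 with library size only, 0 without a filter on low counts, 0 at the study's criterion, and 0 to 1 with 1 library left out (3 to 5 at an unadjusted p under 0.05). Of the wider genes, 2 were called higher and 11 lower as reported. The higher count was 1 by DESeq2, which gave Maff no adjusted p, 0 without a filter, 1 at the study's criterion and 0 to 2 with 1 library left out. The lower count was 0 without a filter, 1 at the study's criterion (Mgst2, which passed the filter only through WT_CTCF) and 0 to 3 with 1 library left out. These zeros go with few calls over all genes. Without a filter, 26 higher and 3 lower genes were called among 23739. Without MUT_CTCF replicate 1 or without MUT_CTCF replicate 2, 0 genes were called in edgeR's test (787 higher and 864 lower, and 688 higher and 897 lower, at an unadjusted p under 0.05), a fit in which the lone library is assumed to vary like the other line. Without WT_CTCF replicate 1, 130 higher and 63 lower genes were called, and without WT_CTCF replicate 2, 140 and 102. DESeq2 called 128 higher and 158 lower. The cause was not tested.

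With a replicate block, 3 genes of the NRF2 group were called lower (Txnrd1 was added), and 3 wider genes were called higher and 14 lower, in a fit that called 326 genes higher and 372 lower of all tested. The replicate numbers did not pair the libraries (correlation of deviations 0.0189 across genes). Over 32 named genes and up to 12 alternatives, 287 of 381 values kept direction and side of the threshold, 85 lost the call, 7 gained it and 2 changed sign. Both of those were Keap1, from -0.043 to 0.078 with 1 library left out. Only genes called as reported could lose a call, so all 85 came from these. Their share of the 381 values thus understates how often a call was lost.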
